A study of Mus musculus with 24 samples.

Results

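The voltage-gated sodium and calcium channel genes were followed through RNA-seq and ribosome profiling of mouse hippocampal slices. Members were the genes whose symbol begins with Scn, a number and a final a or b, or with Cacna, Cacnb or Cacng, and 39 of the 20409 symbols present in both assays met this rule. Of these, 19 encode pore-forming subunits and 20 encode auxiliary subunits. Scn2a, which encodes the sodium channel Nav1.2, is listed under its older symbol Scn2a1, so the rule does not take it, and it is treated here as a partner gene. The slices came from male WT and littermate Tsc2+/- mice aged 28 to 42 days, and received vehicle (artificial cerebrospinal fluid) or 100 µM DHPG for 5 min. DHPG activates the metabotropic glutamate receptors (mGluRs) of group I, and Tsc2 encodes a subunit of the complex that restrains the kinase mTOR. The 4 groups (WT vehicle, WT DHPG, Tsc2+/- vehicle and Tsc2+/- DHPG) had 3 RNA and 3 ribosome footprint libraries each. Per the study's methods, the mutation was made with CMV-Cre, so 1 copy of Tsc2 was lost in the whole animal rather than in a chosen cell type. The line was kept on C57BL/6J, CA3 was cut off the slices, and every lysate was a pool of slices taken from several animals. The methods call these replicates CA1-enriched and have CA1 dissected out after the incubation. Per the labels, slices of all groups were exposed to cycloheximide before freezing.

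Voltage-gated channels open when the membrane is depolarised. A sodium channel (Nav) consists of a large alpha subunit, which forms the pore and carries the voltage sensors, and of small beta subunits that change its gating and its place in the membrane. Calcium channels (Cav) have a related pore subunit. The Cav1 (L-type) and Cav2 (P/Q-, N- and R-type) pores assemble with an intracellular beta subunit and an extracellular alpha2delta subunit, which promote surface expression, whereas the Cav3 (T-type) pores open near the resting potential and need neither. The gamma subunits fall into those of the muscle calcium channel (Cacng1 and its relative Cacng6) and the transmembrane AMPA receptor regulatory proteins, or TARPs (Cacng2, Cacng3, Cacng4, Cacng5, Cacng7 and Cacng8), which act mainly on glutamate receptors. In hippocampal pyramidal cells, Nav1.2 and Nav1.6 carry the action potential, Cav2 channels trigger transmitter release, and Cav1.2 couples activity to transcription.

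The bases around the start codon are shown for members whose footprints the results turn on, since translation begins there. They were read from the RefSeq annotation of GRCm38.p6 (mm10). Each line spans 9 bases before to 10 bases from the first base of the start codon, on the coding strand. Capitals mark the base 3 before the start codon, the start codon and the base after it.
Scn3a (chr2:65536667-65536685, minus strand): gatgaaAagATGGcccagg
Scn8a (chr15:100936316-100936334, plus strand): aatgagAagATGGcagcgc
Scn9a (chr2:66568255-66568273, minus strand): gatgagAagATGGcgatgt
Scn7a (chr2:66757348-66757366, minus strand): aaaccgAaaATGTtgactt
Cacna2d1 (chr5:15935005-15935023, plus strand): atcgcgAagATGGctgctg
Cacna1h (chr17:25433159-25433177, minus strand): tctgccAccATGAccgagg
Cacna1i (chr15:80298406-80298424, plus strand): cacgctGacATGGctgaca
Cacng5 (chr11:107884532-107884550, minus strand): tccaggAagATGAgcgcct
Cacng8 (chr7:3394216-3394234, plus strand): gtggtgAaaCTGGagtcat
The letters AAGATGG, from the base 3 before the start codon, stood at this place in 7 of the 8 Nav alpha members with such a context, Scn7a being the exception. They stood there in 1 of 27 other members, Cacna2d1, and in 4.2% of 18730 genes searched in the same way on their own coding strand. An A or G at the first of these places together with a G after the start codon, the combination known to favour initiation, was present in 12 of 17 pore and 7 of 18 auxiliary members, against 42.7% of all genes. Cacng8 is annotated with a CTG start codon in place of ATG, and 3 further members had an annotated 5′ leader under 9 bases and gave no context. Footprints over the start codon itself were not counted by the authors.

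RNA libraries held 14801679 to 24067838 counts and footprint libraries 5296006 to 13613673 counts. Members took 0.436% to 0.460% of RNA counts and 0.301% to 0.339% of footprint (RPF) counts. Most RPF counts of replicates 2 and 3 were even numbers (97.9% to 98.5% of non-zero values, against 48.2% to 49.7% in the other libraries). Whether each read was counted as 2 in those libraries could not be settled, so their RPF depth and counting error are uncertain by that factor. Tsc2 RNA was 186 to 214 CPM (counts scaled to library size) in WT and 128 to 137 in Tsc2+/- libraries, so the genotype labels matched the targeted gene. The slices carried CA1 pyramidal markers at a summed RNA level of 1610 to 1790 CPM over 4 genes, and markers of interneurons (905 to 975 CPM over 8 genes), astrocytes and oligodendrocytes were present as well. These are bulk samples, so fewer cells of a type and less RNA per cell cannot be told apart. The study's methods describe the replicates as biological, and p-values measure the spread between such pools of animals.

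Of the Nav alpha genes, Scn8a (Nav1.6, the main channel of the axon initial segment and nodes) had the highest RNA level per length, 46.0 ± 2.10 CPM per transcript kb (SD over 12 libraries). Scn1a (Nav1.1, prominent in parvalbumin interneurons) stood at 9.56 ± 0.775 and Scn3a (Nav1.3, high before birth) at 3.36 ± 0.248 on the same scale. Channels known mainly from other tissues were low, with Scn7a (the atypical Nax) at 0.121 ± 0.0294 and Scn9a (sensory neurons) at 0.0719 ± 0.0397 CPM per transcript kb. Scn4a (skeletal muscle), Scn10a and Scn11a (sensory neurons) reached at most 8 RNA counts in a library and were not tested. With Scn2a1 counted in, the Nav alpha RNA per length was 49.1% ± 1.32 Scn8a and 36.2% ± 1.14 Scn2a1. Among footprints per coding kb the order of this pair was the opposite, with 36.7% ± 1.68 Scn8a and 48.2% ± 1.54 Scn2a1. The 12 libraries of the pair did not overlap in either assay. Scn1a took a like share of RNA (10.2% ± 0.713) and of footprints (9.92% ± 0.410).

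Among the Nav beta genes, Scn3b RNA stood at 96.0 ± 8.60, Scn2b at 65.2 ± 3.48 and Scn4b at 3.37 ± 0.673 CPM per transcript kb. In footprints, Scn3b stood at 288 ± 22.5, Scn2b at 216 ± 16.4 and Scn4b at 13.2 ± 2.71 CPM per coding kb. The 3 genes kept the same order in both assays.

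Among the calcium channel pores, the Cav2 genes led. Cacna1e (R-type) had the highest RNA level at 27.6 ± 1.50, followed by Cacna1a (P/Q-type) at 21.3 ± 1.67 and Cacna1b (N-type) at 15.2 ± 0.746 CPM per transcript kb. The T-type genes Cacna1h at 14.8 ± 0.922 and Cacna1g at 14.6 ± 0.915 did not differ from each other or from Cacna1b beyond their spread, and Cacna1i stood at 10.7 ± 0.769. The L-type genes Cacna1c and Cacna1d were lower, at 6.51 ± 0.408 and 4.54 ± 0.279. Cacna1s (skeletal muscle) had 7 to 28 RNA counts in a library and Cacna1f (retina) at most 2. Cacna1e took 23.9% ± 0.756 of the calcium channel pore RNA per length and 48.9% to 51.6% of the footprints per coding kb over the 12 libraries. For the T-type genes the shares went the other way, from 12.8% ± 0.562 to 6.37% ± 0.458 for Cacna1h, from 12.7% ± 0.579 to 4.89% ± 0.483 for Cacna1g, and from 9.30% ± 0.430 to 5.05% ± 0.430 for Cacna1i.

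The alpha2delta RNA was mostly Cacna2d1 (34.5 ± 2.90 CPM per transcript kb, a target of gabapentin) and Cacna2d3 (29.3 ± 1.60), with Cacna2d2 at 6.70 ± 0.627 and Cacna2d4 at 0.210 ± 0.0688. Of the Cav beta genes, Cacnb3 had the highest RNA level (92.0 ± 3.30), followed by Cacnb1 (65.8 ± 3.24), Cacnb2 (23.5 ± 1.39) and Cacnb4 (21.0 ± 1.44). In footprints per coding kb these 4 genes were much closer, at 48.5 ± 3.22, 55.4 ± 3.92, 40.8 ± 4.46 and 42.2 ± 2.41. The RNA order of Cacnb3 and Cacnb1 (260 and 232 CPM before division by length) depends on the transcript length used. For Cacnb1 the longest coding transcript, used here, has 3524 nt and the mean over its 6 coding transcripts is 2306 nt. For Cacnb3 these lengths are 2822 and 2674 nt. Cacng8, the main TARP of hippocampal pyramidal cells, stood at 94.1 ± 6.04 CPM per transcript kb and took 48.8% ± 1.79 of the gamma and TARP RNA per length and 66.3% ± 2.90 of the footprints. Cacng3 (49.2 ± 2.76) came next in RNA, followed by Cacng7 with 15.5% ± 1.24 of this sum, then Cacng2, or stargazin (11.3 ± 1.02 CPM per transcript kb), Cacng5 (4.37 ± 0.817) and Cacng4 (3.54 ± 0.338). Cacng6 and Cacng1 were at 0.265 ± 0.133 and 0.122 ± 0.121 CPM per transcript kb.

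**Figure D1:**
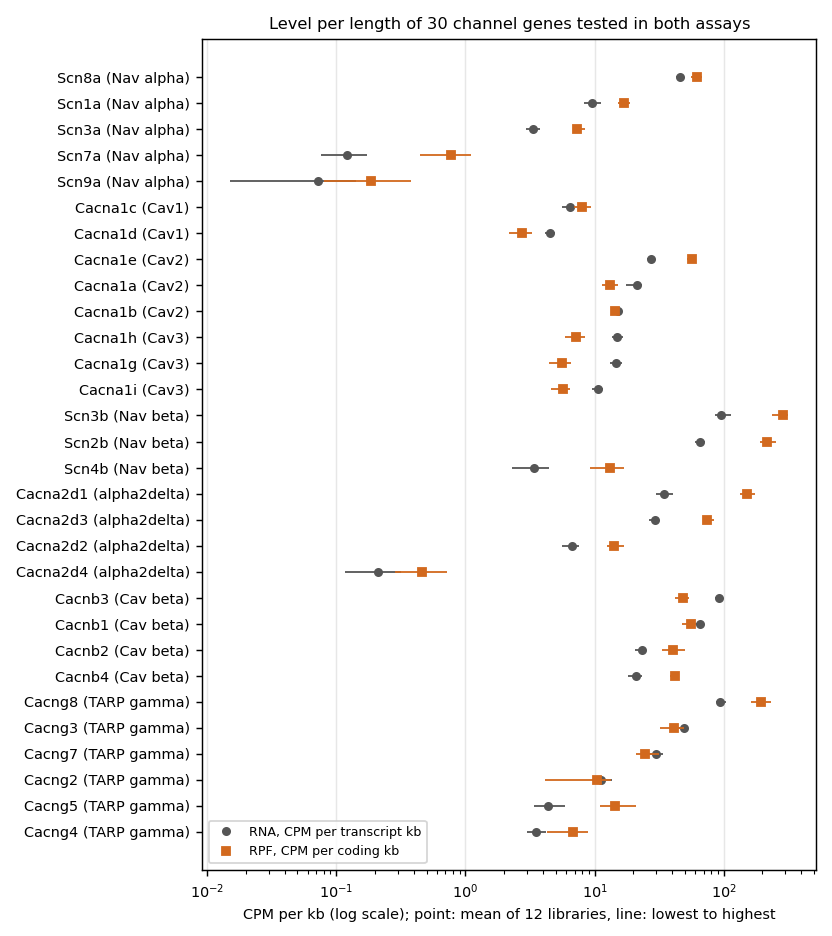
RNA level (CPM per transcript kb, grey circles) and footprint level (CPM per coding kb, orange squares) of 30 of the 32 members tested in both assays, on a log axis, as the mean and the lowest to highest of 12 libraries. The Cav3 genes (Cacna1g, Cacna1h, Cacna1i) show the footprint level left of the RNA level while the alpha2delta genes show it to the right.

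Footprints per RNA, the translational efficiency (TE) level, were taken as log2 of RPF CPM per coding kb over RNA CPM per transcript kb, a scale on which the median of all genes was 1.15 in WT vehicle slices. Pore members had a median TE level of 0.16 ± 0.16 (SD, n = 3 lysates) and auxiliary members of 0.88 ± 0.06 in WT vehicle, a difference of -0.72 ± 0.11. Of the pore members 13 of 14, and of the auxiliary members 11 of 18, lay under the median of all genes. The pore median was the lower one in each of the 12 lysates. By family, the median TE level was 1.58 for Nav beta, 1.29 for alpha2delta, 0.79 for Nav alpha, 0.38 for TARP, 0.24 for Cav beta, -0.05 for Cav2, -0.14 for Cav1 and -0.92 for Cav3 genes.

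The families were not uniform. Cacna2d1 had the highest TE level of the members with a mean of at least 50 counts in each assay, 2.07 ± 0.35 (SD, n = 3), and Scn4b (1.93 ± 0.12), Cacng5 (1.76 ± 0.06), Scn2b (1.59 ± 0.13) and Scn3b (1.58 ± 0.20) followed without a clear gap. Within Cav2, Cacna1e stood at 1.12 ± 0.16, while Cacna1b was at -0.05 ± 0.17 and Cacna1a at -0.62 ± 0.16. Cacnb3 (-0.90 ± 0.10) and the T-type genes Cacna1g (-1.24 ± 0.20), Cacna1h (-0.92 ± 0.12) and Cacna1i (-0.73 ± 0.20) had among the lowest values, and Cacna1g lay at percentile 2.78 of all genes. Scn7a, at 2.91 ± 0.52, rested on a mean of 18.2 RNA and 31.4 RPF counts a library, and Scn9a, at 0.75 ± 0.83, on 14.2 and 8.67.

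Coding length differs with role, with a median of 6030 nt for pore and 978 nt for auxiliary members. For Pearson's r below, lengths were taken on a log2 scale. Over the 28 members with a mean of at least 50 counts in each assay, the TE level had a Pearson's r of -0.35 and a Spearman's rho of -0.44 with coding length, and of -0.50 and -0.56 with the GC content of the coding sequence. With the length of the 5′ leader r was -0.23 and rho -0.34, and with transcript length -0.02 and -0.03. These are descriptions across genes that share the same libraries, and the TE level itself contains both lengths. The part of length and GC content in the pore and auxiliary difference was not tested.

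**Figure D2:**
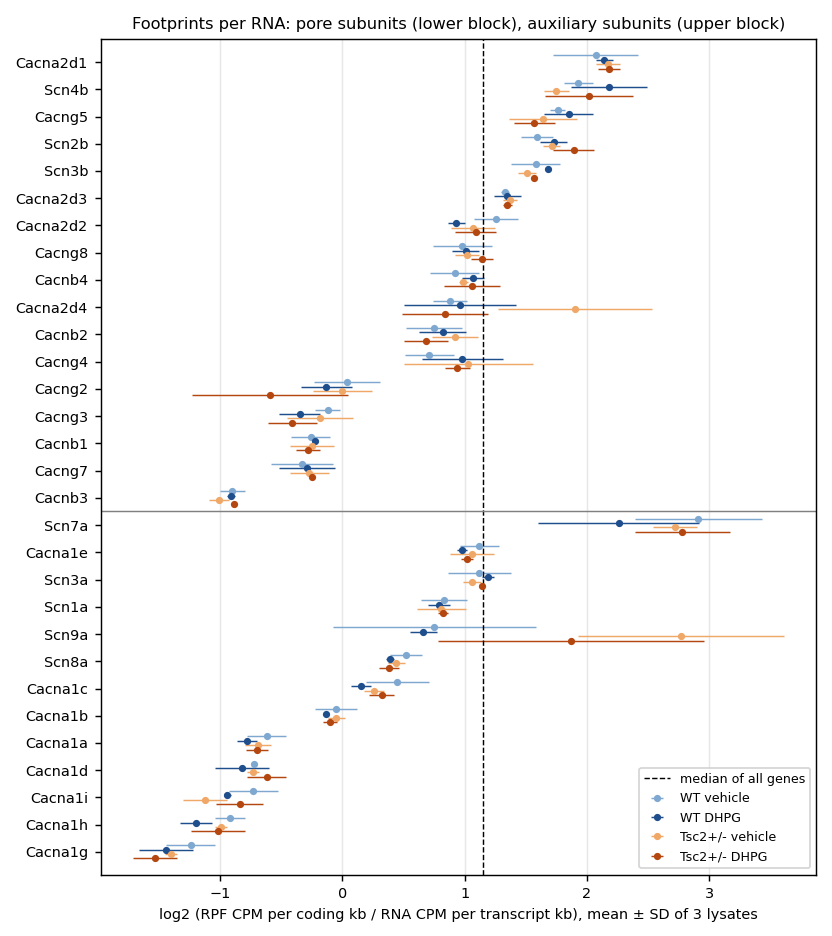
TE level (log2 of RPF CPM per coding kb over RNA CPM per transcript kb) of 30 members in the 4 groups, as mean ± SD of 3 lysates, with 13 pore members in the lower and 17 auxiliary members in the upper block and the median of all genes dashed. Differences between genes, from -1.24 for Cacna1g to 2.07 for Cacna2d1 in WT vehicle among members with a mean of at least 50 counts, are far wider than most of those between groups. Wide bars belong to the sparsely counted Scn7a, Scn9a and Cacna2d4, to Cacng4 in Tsc2+/- vehicle (SD 0.53) and to Cacng2 in Tsc2+/- DHPG (SD 0.64).

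Over the groups, the difference between the pore and auxiliary medians of the TE level was -0.81 to -0.60 in the WT vehicle lysates. It was -0.98 to -0.91 in WT DHPG, -0.97 to -0.86 in Tsc2+/- vehicle and -0.90 to -0.84 in Tsc2+/- DHPG. The WT vehicle lysates thus did not overlap with those of the other groups, whose ranges lay close together. Among members with a mean of at least 50 counts in each assay the group means were -0.90, -1.14, -1.04 and -1.04 in the same order. The WT vehicle lysate with the smallest difference, replicate 3, had the highest pore median of the 12 (0.34, against -0.02 to 0.18 in the others).

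The effect of genotype was asked separately in vehicle and in DHPG, and also averaged over both. The clearest difference was in Cacng5 (chr11:107874604-107915055, minus strand), which encodes a TARP found at high levels in CA2. Its RNA stood at 14.3, 13.5 and 15.3 CPM in WT vehicle and at 19.7, 16.8 and 22.2 CPM in Tsc2+/- vehicle, with no overlap, as was so for 3 of 34 members and 4.01% of all genes in that direction. After DHPG it stood at 15.0, 14.5 and 12.8 CPM in WT and at 17.1, 15.0 and 21.5 CPM in Tsc2+/-. All 6 Tsc2+/- libraries but 1, at 15.0 CPM after DHPG, lay above the highest WT library. Before rounding the genotypes did not overlap after DHPG either, as for 3 of 34 members and 4.90% of all genes in that direction. Averaged over treatments, Cacng5 RNA was higher in Tsc2+/- by 0.39 ± 0.0830 on the log2 scale (SE, edgeR quasi-likelihood test, adjusted p = 0.0255) and had this sign in 3 of 3 contrasts of same-numbered libraries. The separate differences, 0.44 ± 0.116 in vehicle and 0.34 ± 0.118 in DHPG, did not pass alone (adjusted p = 0.349 and 0.838). Cacng5 was the only member called in any of the 7 comparisons of RNA, RPF or TE, which is 1 of 34 members tested for RNA where 0.227% of 14516 genes were called.

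The Cacng5 call depended on single libraries. It was lost without replicate 3 (log2 difference 0.25, adjusted p = 0.720), without replicate 1 (adjusted p = 0.147), without the third library of WT DHPG (0.292), Tsc2+/- vehicle (0.112) or Tsc2+/- DHPG (0.198), and without the replicate number in the model (0.114). Its footprints were at 9.76, 9.79 and 10.3 CPM in WT vehicle, 13.5, 8.49 and 16.2 in Tsc2+/- vehicle, 11.9, 9.04 and 10.1 in WT DHPG, and 9.13, 10.1 and 13.2 in Tsc2+/- DHPG. These ranges overlapped, and the averaged RPF difference was 0.18 ± 0.132 (adjusted p = 0.853). Of 8 genes known from CA2 pyramidal cells, 0 were called, 2 were higher and 0 lower at an unadjusted p under 0.05, against 3.05% and 3.07% of all genes, and their median RNA difference averaged over treatments was 0.12. Their summed RNA was 431 to 511 CPM in WT and 461 to 553 CPM in Tsc2+/- libraries. The 2 were Rgs14, their defining marker, at 151 to 171 CPM in WT and 160 to 188 CPM in Tsc2+/-, and Map3k15, at 0.388 to 1.65 and 0.838 to 3.26 CPM. Dentate granule markers had the other sign, with a median difference of -0.920 over 5 genes. Their summed RNA was 30.9 to 53.9 CPM in WT and 22.1 to 40.3 CPM in Tsc2+/- libraries, and averaged over treatments 1 of 5 was called lower and 4 of 5 were lower at an unadjusted p under 0.05. Blood markers, with 2 genes in the table, were at 7.20 to 12.7 CPM in WT and 1.21 to 8.16 CPM in Tsc2+/- libraries. The part of these marker lists in the Cacng5 difference was not tested.

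**Figure D3:**
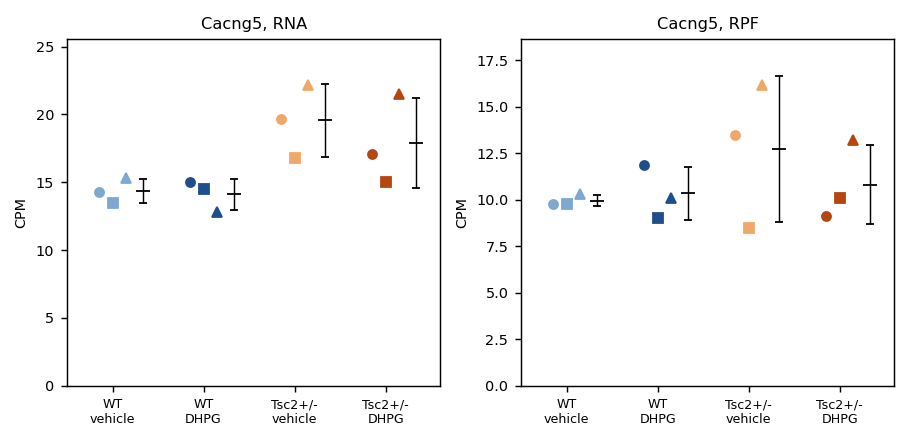
Cacng5 RNA and RPF level (CPM, axes from 0) in each library of the 4 groups, with replicates 1, 2 and 3 as circle, square and triangle and the mean ± SD beside them. RNA is higher in the Tsc2+/- libraries of each treatment, with the third replicates (22.2 and 21.5 CPM) highest, while the RPF ranges overlap.

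The other members showed no difference by genotype that passed the test. With edgeR, 0 of 34 members were called in RNA and 0 of 32 in RPF within either treatment, where 0.0896% (RNA) and 0.0233% (RPF) of all genes were called in vehicle and 0.0482% and 0.0155% in DHPG. At an unadjusted p under 0.05 the members numbered 4 of 34 in RNA in vehicle, against 4.90% of all genes, and 2 of 34 in DHPG, against 4.64%. In RPF it was 1 of 32 (6.55% of all genes) in vehicle and 1 of 32 (4.13%) in DHPG. DESeq2 also called 0, and DESeq2 after ComBat adjustment called 1 in RNA in vehicle, Scn3b (0.14, adjusted p = 0.0763), and 0 in the others. Over the members with a mean of at least 50 counts, RNA differences in vehicle ran from -0.12 to 0.44 on the log2 scale with a median SE of 0.0626, and 28 of 29 had a 95% interval within 0.5 of no change. Among the large neuronal pores, Scn8a RNA averaged 510 ± 22.7 CPM in WT vehicle and 536 ± 30.2 CPM in Tsc2+/- vehicle (SD, n = 3), a log2 difference of 0.07 ± 0.0504. Cacna1e RNA was 339 ± 16.3 and 355 ± 29.0 CPM (0.07 ± 0.0571), and Cacna1a 158 ± 17.2 and 171 ± 11.2 CPM (0.12 ± 0.0693). Cacna1b was at 145 ± 11.8 and 146 ± 5.34 CPM. Cacna1h (chr17:25374285-25436334, minus strand), which lies 0.742 Mb from Tsc2 and is the member nearest to it, had RNA of 116 ± 4.68 CPM in WT vehicle and 122 ± 8.79 CPM in Tsc2+/- vehicle, and of 129 ± 7.47 and 119 ± 4.54 CPM after DHPG. Its differences were 0.08 ± 0.0585 and -0.11 ± 0.0584 (adjusted p = 0.991 and 0.997).

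Auxiliary genes were as close. Cacna2d1 RNA was 262 ± 39.0 and 258 ± 1.93 CPM in vehicle, Cacnb4 172 ± 13.3 and 173 ± 8.51, and Cacng8 204 ± 11.3 and 197 ± 19.8. Each of these pairs of means lay within 1 SD of each other. Cacng8 RNA differed by -0.10 ± 0.0541 after DHPG (adjusted p = 0.997). Scn3b RNA was 402 ± 41.4 and 437 ± 47.8 CPM in vehicle (0.12 ± 0.0564, adjusted p = 0.983). Scn2b, the covalently bound beta2 subunit, had footprints of 111, 113 and 123 CPM in WT vehicle and of 126, 129 and 129 CPM in Tsc2+/- vehicle. These did not overlap, as was so for 2 of 32 members and 4.21% of all genes in that direction, and the difference of 0.15 ± 0.0685 had an adjusted p of 0.748. None of the larger differences in the remaining auxiliary genes passed. Cacnb2 footprints differed by 0.17 ± 0.0929 in vehicle (adjusted p = 0.778). After DHPG, Scn4b footprints differed by -0.38 ± 0.209 and Cacng2 footprints by -0.37 ± 0.209 (neither passed), and Scn4b RNA by -0.26 ± 0.125 (adjusted p = 0.997). Scn9a RNA was 0.967 ± 0.456 CPM in WT vehicle and 0.394 ± 0.295 CPM in Tsc2+/- vehicle, and Scn7a footprints were 2.78 ± 0.936 and 4.57 ± 1.15 CPM after DHPG, which did not pass either.

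DHPG was compared with vehicle within each genotype, with the same libraries as the genotype comparisons. With edgeR, 0 members were called in RNA, RPF or TE in either genotype, where 0% (RNA), 0.0311% (RPF) and 0.0469% (TE) of all genes passed in WT and 0% passed in Tsc2+/-. DESeq2 also called 0, while DESeq2 after ComBat adjustment called 3 in WT RNA, Cacna1i (0.22, adjusted p = 0.0136), Cacna1h (0.17, 0.0396) and Cacng7 (0.18, 0.0760), where it called 350 of all genes. At an unadjusted p under 0.05 in RNA, edgeR had the same 3 of 34 members higher in WT, against 3.70% of all genes in that direction. In Tsc2+/- it had 1 of 34, Scn4b, against 4.32% in either direction. Cacna1h RNA was 114, 121 and 112 CPM in WT vehicle and 121, 130 and 136 CPM in WT DHPG, without overlap before rounding (0.16 ± 0.0587, adjusted p = 0.725), as was so for 3 of 34 members and 5.43% of all genes in that direction. Cacng7, a type II TARP, was at 62.0, 70.3 and 67.7 CPM and then at 68.3, 80.2 and 78.6 CPM, with overlap (0.18 ± 0.0689, adjusted p = 0.725). In Tsc2+/- slices Cacna1h RNA was 113 to 130 CPM in vehicle and 116 to 125 CPM in DHPG, with a change of -0.03 ± 0.0581. There, Scn4b (-0.26 ± 0.123), Cacna1g (0.12 ± 0.0607) and Scn3b (-0.11 ± 0.0563) had the smallest unadjusted p in RNA (0.0432, 0.0531 and 0.0636).

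Footprints after DHPG gave 2 of 32 members in WT at an unadjusted p under 0.05 (6.71% of all genes) and 2 of 32 in Tsc2+/- (4.03%). Scn8a footprints were 379, 362 and 398 CPM in WT vehicle and 348, 335 and 355 CPM in WT DHPG, without overlap, as for 2 of 32 members and 3.96% of all genes in that direction (-0.13 ± 0.0547, adjusted p = 0.674). Another 3 of 32 (Scn2b, Scn4b and Cacng4) lay above their vehicle libraries without overlap, as did 5.00% of all genes. In Tsc2+/- the Scn8a footprints were 402, 357 and 375 CPM and then 382, 329 and 358 CPM, with overlap (-0.08 ± 0.0548). Scn8a RNA was 510 ± 22.7 and 511 ± 24.9 CPM in the WT groups, a difference far within 1 SD. Scn2b footprints were 128, 126 and 132 CPM in WT DHPG, beside the WT vehicle values given before (0.15 ± 0.0680, adjusted p = 0.715). Cacna2d2 footprints were 57.4, 47.4 and 52.5 CPM in WT vehicle and 47.2, 47.9 and 43.1 CPM in WT DHPG (-0.18 ± 0.0929, adjusted p = 0.731). In Tsc2+/-, Cacng3 footprints were 36.3, 43.5 and 36.2 CPM in vehicle and 34.9, 34.8 and 28.6 CPM in DHPG (-0.24 ± 0.110), Cacng2 footprints were 9.96 ± 0.477 and 7.32 ± 3.10 CPM (-0.42 ± 0.212), and those of the sparse Cacna2d4 2.19 ± 0.173 and 1.14 ± 0.307 CPM (-0.97 ± 0.447). None of these passed, and the 3 genes are those of 32 whose DHPG libraries lay below all vehicle libraries in Tsc2+/-, as did 4.47% of all genes.

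Changes in TE were taken as the RPF change minus the RNA change, and 0 of 32 members passed the test by genotype, as did 0 of 12785 genes. In vehicle 2 of 32 had an unadjusted p under 0.05 (5.73% of all genes) and in DHPG 0 (3.02%). Cacna1i (chr15:80287238-80398292, plus strand), a T-type pore of thalamic and other neurons, had the smallest unadjusted p of the members by genotype in vehicle and by DHPG in Tsc2+/-. Its RNA was 94.0, 101 and 93.0 CPM in WT vehicle, 111, 107 and 113 in WT DHPG, 107, 113 and 108 in Tsc2+/- vehicle, and 102, 97.1 and 114 in Tsc2+/- DHPG. WT vehicle had the lowest mean, and of the other 9 libraries the second of Tsc2+/- DHPG alone fell within its range. Its footprints were 38.9, 35.1 and 42.6 CPM in WT vehicle, 39.3, 36.4 and 39.5 in WT DHPG, 36.0, 30.2 and 34.8 in Tsc2+/- vehicle, and 40.5, 39.6 and 36.8 in Tsc2+/- DHPG. Here the Tsc2+/- vehicle libraries were the lowest group, overlapping with WT vehicle but not with Tsc2+/- DHPG. Footprints higher after DHPG in Tsc2+/- without overlap were seen in 1 of 32 members and 4.95% of all genes. The TE difference by genotype in vehicle was -0.39 ± 0.115 (95% interval -0.62 to -0.15, unadjusted p = 0.00159, adjusted p = 0.730), and by DHPG in Tsc2+/- 0.27 ± 0.114 (adjusted p = 0.999). In RNA the difference was 0.19 ± 0.0626 by genotype in vehicle (adjusted p = 0.870) and 0.20 ± 0.0630 by DHPG in WT (adjusted p = 0.712).

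**Figure D4:**
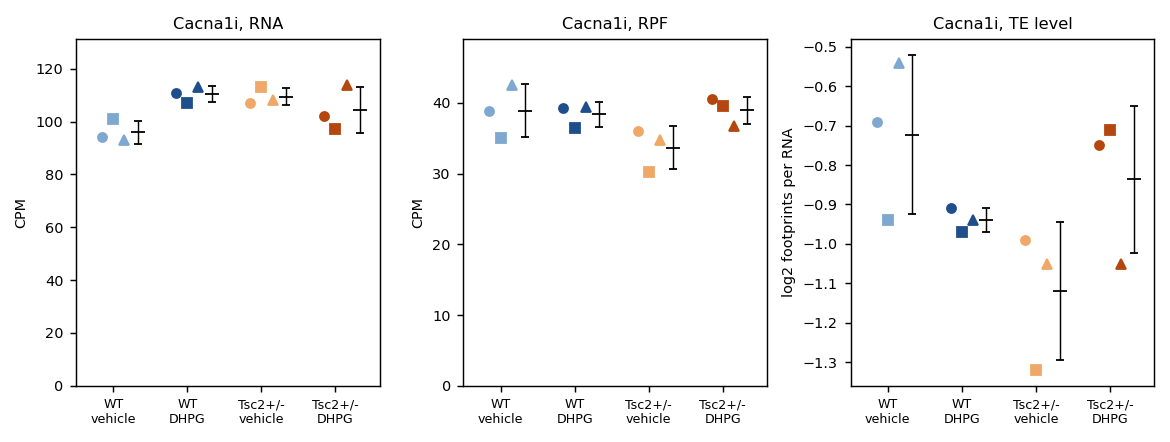
Cacna1i RNA and RPF level (CPM, axes from 0) and TE level (log2, axis not from 0) in each library or lysate of the 4 groups, with replicates 1, 2 and 3 as circle, square and triangle and the mean ± SD beside them. WT vehicle has the lowest RNA mean and Tsc2+/- vehicle the lowest RPF mean and TE level, with lysates from -1.32 to -0.99.

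In WT, 4 of 32 members had TE levels after DHPG below all those in vehicle, against 5.01% of all genes, and 3 of these had an unadjusted p under 0.05, against 4.57%. The fourth of those lower in WT was Cacng3 (-0.23 ± 0.126, adjusted p = 0.593). In Tsc2+/-, 4 of 32 lay above all those in vehicle (Cacnb3, Scn3a and Scn3b among them), against 5.23% of all genes, with differences of 0.06 to 0.11. For Cacna1h the TE level was -0.82, -1.05 and -0.87 in WT vehicle and -1.06, -1.24 and -1.31 in WT DHPG (-0.29 ± 0.110, adjusted p = 0.385). For Cacna1c, the pore of the main L-type channel, whose locus overlaps 3 others on the same strand, it was 0.27, 0.32 and 0.75 and then 0.15, 0.08 and 0.23 (-0.29 ± 0.114, adjusted p = 0.408). Cacna2d2 changed by -0.33 ± 0.132 (adjusted p = 0.433). In Tsc2+/- slices the same differences were -0.01 ± 0.110 for Cacna1h, 0.07 ± 0.115 for Cacna1c and 0.02 ± 0.132 for Cacna2d2. By genotype in vehicle, a comparison that shares the WT vehicle libraries, they were -0.08 ± 0.110, -0.18 ± 0.115 and -0.17 ± 0.133. By DHPG in Tsc2+/-, 3 of 32 members (Cacna1i, Scn2b and Cacng2) had an unadjusted p under 0.05, against 3.69% of all genes. On few counts, Scn9a had a TE difference of 1.81 ± 0.807 by genotype in vehicle (adjusted p = 0.855). Scn2b had TE differences of 0.16 ± 0.0820 by genotype in DHPG and 0.17 ± 0.0824 by DHPG in Tsc2+/-, and Cacng2 one of -0.43 ± 0.213 by DHPG in Tsc2+/-, none of which passed. The Cacng2 difference lay between -0.67 and -0.10 under the alternatives tried, and the TE level of replicate 2 in Tsc2+/- DHPG (-1.34) stood apart from -0.22 and -0.23 in the others.

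A single WT vehicle library changed calls in the DHPG comparison in WT. Without replicate 2 of WT vehicle, Cacna1a RNA was called higher after DHPG (0.26, adjusted p = 0.0697) and Cacna2d2 TE lower (-0.50, adjusted p = 0.0746), and the number of all genes called went from 0 to 112 in RNA and from 6 to 375 in TE.

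The difference of the DHPG effects between genotypes was tested as an interaction, with 0 members called in RNA, RPF or TE and 0 of all genes (edgeR). At an unadjusted p under 0.05, RNA gave 3 members lower (Cacna1i, Cacna1h and Scn4b), RPF gave 0 and TE gave 2 higher (Cacna1i and Cacna1c). Of all genes, 3.47% in RNA, 3.81% in RPF and 4.08% in TE did so in either direction. In the direction of the members it was 1.70% in RNA and 2.25% in TE. DESeq2 with the same model also called 0 members. For Cacna1i the interaction was -0.27 ± 0.0884 in RNA (adjusted p = 0.999), 0.22 ± 0.142 in RPF (adjusted p = 0.998) and 0.48 in TE (95% interval 0.16 to 0.80, unadjusted p = 0.00436, adjusted p = 0.999). All 3 contrasts of same-numbered libraries had the same sign in each of these. Since Cacna1i was picked by its small p, and the interaction uses the same libraries as its differences given before, this is no separate support.

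Pore and auxiliary members were set side by side by the median of their fold changes. In RNA, the pore median was 0.067 and the auxiliary 0.017 by genotype in vehicle, 0.015 and -0.057 by genotype in DHPG, 0.112 and 0.014 by DHPG in WT, and -0.003 and -0.015 by DHPG in Tsc2+/-. In RPF the medians were 0.003 and 0.055, 0.076 and -0.017, -0.076 and 0.064, and 0.016 and -0.020 in the same order. In TE they were -0.067 and 0.033, 0.087 and -0.024, -0.138 and 0.051, and 0.006 and 0.008. The median of all genes stayed between -0.005 and 0.001. The widest gap was TE by DHPG in WT, where 11 of 14 pore members were lower and 13 of 18 auxiliary members higher, beside 50.2% of all genes higher. The pore median by replicate number was -0.158, 0.070 and -0.330 in that comparison, so that replicate 2 had the other sign. Without replicate 3 of WT vehicle the medians were -0.055 and 0.019, and with the trend on length and GC content removed they were -0.001 and 0.109. In RNA by DHPG in WT the pore median by replicate number was 0.121, -0.100 and 0.265, again with the other sign in replicate 2. In RPF by genotype in DHPG, 13 of 14 pore members were higher beside 48.6% of all genes, with medians by replicate of 0.137, 0.032 and 0.046. Members share libraries and are not replicates. In TE by DHPG in WT the median SE was 0.114 for pore members, beside the pore median of -0.138. There 3 of 32 members had an unadjusted p under 0.05 (edgeR), against 9.06% of all genes.

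**Figure D5:**
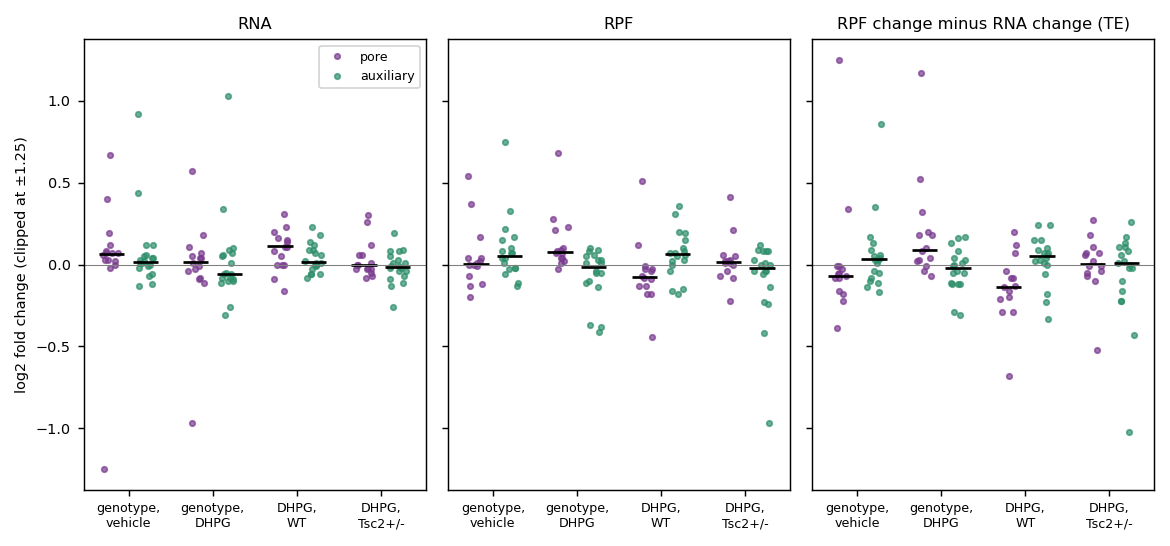
Log2 fold changes of RNA (34 members), RPF and TE (32 members each) in the 4 pairwise comparisons, for pore (purple) and auxiliary (green) members, with black bars at the medians and 2 points clipped at 1.25 in size. Most points lie close to 0, and the pore and auxiliary medians are farthest apart in TE by DHPG in WT (-0.138 and 0.051, or -0.055 and 0.019 without replicate 3 of WT vehicle).

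Genes known to act with these channels, 37 in all, comprised Scn2a1, the sodium leak channel complex, FGF homologous factors, ankyrins and other initial segment proteins, RIM and RIM-binding proteins, SNAREs, calmodulin and G protein subunits. All 37 were tested in RNA and RPF. Of the 37, 0 were called by genotype in either assay and 1 by DHPG, Ppp3ca, the catalytic subunit of calcineurin, whose RNA fell by 0.16 ± 0.0323 on the log2 scale averaged over genotypes (adjusted p = 0.0584), where 0.0207% of all genes were called. At an unadjusted p under 0.05 in RNA, 3 were higher and 2 lower by genotype in vehicle, against 4.90% of all genes in either direction, and 4 higher and 2 lower by DHPG in WT, against 6.45%. The median RNA change of the list was 0.015 by genotype in vehicle and 0.003 by DHPG in WT. Scn2a1 RNA spanned 280 to 323 CPM in WT and 284 to 336 CPM in Tsc2+/- libraries, and its footprints 421 to 540 and 481 to 518 CPM. Its differences by genotype in vehicle were -0.02 ± 0.0594 in RNA, 0.03 ± 0.0604 in RPF and 0.05 ± 0.0915 in TE.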

How the data were processed

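Ribosome profiling and RNA-seq were analysed in 24 libraries, 3 for each of 4 groups in each assay. Per the study's methods, the authors trimmed reads with Cutadapt and Trimmomatic, removed rRNA and tRNA reads with bowtie2, aligned with TopHat2 to mm10, kept uniquely mapped reads, collapsed duplicates by molecular identifiers and deposited RSEM expected counts, which are whole numbers here. RNA was counted over transcripts, and RPF over coding sequences without the outer 30 nt at each end. Reads shared by paralogs, overlapping or antisense loci may be divided or lost by this counting.

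Expected counts were tested with edgeR 4.0.16 in R 4.3.3 (filterByExpr minimum count 10, TMM, quasi-likelihood F test, replicate number as a block, prior count 2) over all genes, with Benjamini-Hochberg adjustment and calls at an adjusted p under 0.1. In RNA 34, in RPF 32 and in TE 32 of 39 members were tested. TE was an interaction over both assays, in place of the study's own TE method. That fit treated the RNA and footprint libraries of the same lysate as independent, and the limma alternative paired them. The replicate block follows the study's batch adjustment. Its 2 genotype and 2 DHPG comparisons, their averages and interaction were fitted. CPM used TMM-scaled library sizes. TE levels used the longest coding transcript in RefSeq of GRCm38.p6, which held all 39 members. The fit was tested on simulated data. Alternatives used DESeq2 1.42.0, ComBat (sva 3.50.0), limma 3.58.1, other filters and scalings, and libraries left out. Members, lists and tests were chosen with earlier results of these data known, and the CA2 list was added after the Cacng5 values were seen. Named genes were those with the smallest unadjusted p among members in each comparison and a fixed set of well known subunits. Counts and medians cover all members, but the values of 2 members are not reported here. Precision is limited by counts, and intervals cover 95%.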

Additional observations from a re-analysis of the deposited data

How the results depend on the processing

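Of the values for whole comparisons, 752 stayed within 1.5 times or within the spread under the alternatives tried and 37 moved. Of the values for single genes, 820 kept their direction and side of the threshold, 4 gained a call, 6 lost it and 1 reversed. DESeq2 after ComBat called 1 member in RNA by genotype in vehicle, 3 by DHPG in WT and 2 by DHPG averaged over genotypes (Cacng7 and Cacna1g), where edgeR called 0 in each. It also called more of all genes (127, 350 and 417, against 13, 0 and 3). The cause was not tested. Leaving out libraries gave 0 to 1 members in RNA by DHPG in WT, 0 to 1 in RNA by genotype averaged over treatments and 0 to 1 in TE by DHPG in WT. RPF gave 0 called members under every alternative. Cacng5 averaged over treatments was called in 16 of 22 alternatives, with adjusted p between 1.65e-04 and 0.720 and log2 differences between 0.25 and 0.49. The TE difference of Cacna1c by genotype in vehicle lay between -0.31 and 0.00 with libraries left out, the latter without replicate 3.

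The difference between pore and auxiliary medians moved most. In TE by DHPG in WT it was -0.189, and it became -0.265 without a filter, -0.110 with the trend on length and GC content removed, and -0.293 to -0.074 with libraries left out. In TE by genotype in vehicle it was -0.101, and it became -0.052 with that trend removed and -0.192 to 0.001 with libraries left out, the last value without replicate 3 of WT vehicle. In RNA by genotype in DHPG it was 0.072, and between -0.024 and 0.097 with libraries left out. The sign of 2 other RNA differences also turned without replicate 3 of all groups. The pore and auxiliary medians were then 0.024 and 0.046 by DHPG in WT, and 0.006 and 0.062 by genotype in vehicle. In RPF by DHPG in WT it was -0.140, and it became -0.198 without a filter, -0.080 with the trend on length and GC content removed, and -0.178 to -0.094 with libraries left out. In TE by genotype in DHPG it was 0.110, and it became 0.049 at a minimum count of 50, 0.069 without the length and GC trend, 0.058 with the even RPF counts of replicates 2 and 3 halved, and 0.025 to 0.154 with libraries left out. In TE by DHPG in Tsc2+/- it was -0.002, and -0.083 to 0.047 with libraries left out. The TE level difference became -0.85, -0.99, -1.01 and -0.93 (WT vehicle, WT DHPG, Tsc2+/- vehicle, Tsc2+/- DHPG) with lengths averaged over coding transcripts, and -0.90, -1.14, -1.04 and -1.04 among members with a mean of at least 50 counts.

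Without the replicate block, 0 members were called in RNA by genotype averaged over treatments (Cacng5 adjusted p = 0.114), and 16 of all genes against 33. The study's methods name preparation batches for these replicates, but the labels do not say which number is which batch. Deviations of same-numbered libraries had correlations of 0.023 to 0.143 in RNA and 0.033 to 0.263 in RPF, and 12 of 12 libraries in each assay correlated best with their own number. Members with a mean under 50 counts (such as Scn7a, Scn9a and Cacna2d4) are limited by depth.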
